A study of Mus musculus with 24 samples.

Results

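Transcripts of the ileum and the jejunum of mice lacking caspase-1 (Casp1-null) were compared on 3 arrays of each segment, 6 of the 24 arrays of the series. The arrays were chosen by their labels alone, as all those made from ileum or jejunum of Casp1-null mice. Caspase-1 is the protease that inflammasomes activate, and the series asks how its loss bears on the release of lipoproteins rich in triglyceride by gut and liver. Each intestinal sample came from a male of 14 to 16 weeks kept on chow, which was fasted overnight and given 200 µL olive oil into the stomach. The intestine was taken 2 h later, cut into duodenum, jejunum and ileum, and its epithelium scraped off, so that every group was measured in the state after oil and none without it. The Casp1-null mice had been backcrossed to C57BL/6 for 10 generations, and wild-type C57BL/6J mice were the controls. Wild-type ileum and jejunum, on 3 arrays each, are given beside the Casp1-null values, and Casp1-null duodenum, on 3 arrays, serves to place the jejunum along the gut. No sample combined the Casp1-null background with intact caspase-1, so caspase-1 and strain cannot be told apart in any difference between genotypes. No label says which part of Casp1 was deleted, or whether ileum and jejunum of the same number came from 1 mouse. The p-values therefore measure only the spread between these samples.

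The small intestine divides its work along its length. The proximal parts break down and take up most sugars, amino acids and fat, and the transcription factor GATA4 is known for holding the jejunal programme in place there. The ileum reclaims bile acids: a sodium-dependent transporter takes them up, an ileal binding protein carries them through the cell, and a heterodimeric transporter releases them to the blood. Bile acids in the ileal cell activate the receptor FXR, which induces the hormone FGF15, and FGF15 lowers bile acid synthesis in the liver. Paneth cells and hormone cells also change in number and product from jejunum to ileum.

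All values are log2 levels of probe sets, so a difference of 1 is a doubling. Array medians of the 18 intestinal arrays lay between 4.874 and 5.005. After the values had been seen, group means below the lowest of these medians were taken as not distinguished from background, and a fold or log2 difference against such a group is a lower bound. Epithelial markers, 14 genes with Epcam and Vil1 among them, had mean levels of 11.99 to 12.10 on the 6 Casp1-null arrays. Ileal array 3 stood apart in markers of smooth muscle and stroma. The mean of those 20 genes was 4.83 and 5.08 on ileal arrays 1 and 2 and 8.13 on ileal array 3, and it was 4.83, 4.95 and 5.88 on the jejunal arrays. One wild-type ileal array, array 2, was as high, at 8.34. Over the 20 genes the median difference between ileum and jejunum was 0.92, and it was -0.27 without ileal array 3. For 14 endothelial markers it went from 0.08 to -0.32. Pearson's r between arrays, computed over probe sets, which are not replicates, was 0.9787 to 0.9879 within ileum, 0.9876 to 0.9912 within jejunum and 0.9726 to 0.9789 between them. What part the smooth muscle RNA of ileal array 3 has in the results was not tested; the counts of genes in all lists were also made without that array.

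**Figure D1:**
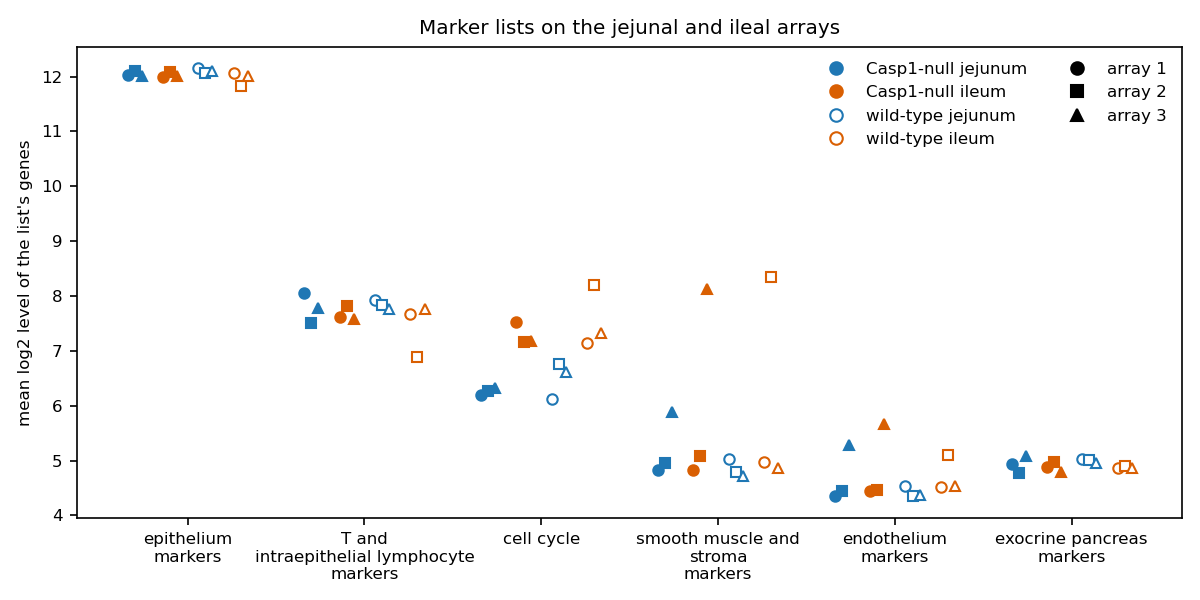
Mean log2 level (vertical axis) of the genes of 6 marker lists on each jejunal (blue) and ileal (orange) array of Casp1-null (filled) and wild-type (open) mice, with 1 symbol shape per array number. Smooth muscle and stroma markers were at 8.13 on Casp1-null ileal array 3 and at 8.34 on wild-type ileal array 2, and on the other arrays at 5.88 or less.

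The targeted gene itself differed between the segments. Casp1 (Gene ID 12362) was at 6.34, 6.52 and 5.82 on the jejunal and at 7.80, 7.26 and 7.42 on the ileal arrays of Casp1-null mice. The 3 ileal arrays all lay above the 3 jejunal ones, and the transcript rose 2.41-fold (log2 difference 1.27 ± 0.23 SE, adjusted p = 0.0023). In wild-type mice, levels were 9.13, 9.44 and 9.32 in jejunum and 9.95, 9.28 and 9.91 in ileum, above every Casp1-null array, as the labels have it. There the segments differed by 0.42 on the log2 scale, which was not called (adjusted p = 0.288), and the difference between the genotypes' segment differences was not called either (adjusted p = 0.886). It could not be settled here whether this probe set reads the deleted stretch.

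Of 18820 genes tested with limma, 2417 were called in Casp1-null ileum against jejunum at an adjusted p under 0.05. In ileum 1272 genes were higher (6.76% of those tested) and 1145 were lower (6.08%), with a median difference over all genes of -0.02. Together these are 12.8% of all genes, the share to hold beside the counts of each gene list below. The lists were chosen with earlier results of these data known, so their counts and medians are a description. At least a 2-fold difference was shown by 414 of the genes that rose and by 295 of those that fell. In 28.6% of all genes the ileal arrays did not overlap with the jejunal arrays. The balance of rises and falls moved with the scaling: 52.6% of the called genes were higher in ileum as deposited, 46.7% after a further quantile normalization (1134 higher, 1293 lower) and 42.4% after each array was centred on its median (976 higher, 1327 lower). Without ileal array 3, 977 genes were higher and 805 lower. Without ileal array 1, 725 were higher and 772 lower. Because scraped epithelium is a mixture, fewer cells of a type and less RNA per cell cannot be told apart in any of these values.

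Genes of bile acid recovery were among the rises. Fabp6, the ileal bile acid binding protein and the largest rise of all genes, was at 4.78, 4.52 and 4.93 on the jejunal arrays and at 12.10, 12.39 and 12.47 on the ileal arrays. The jejunal level was below the array medians and the ileal level near the top of the scale, a gap of at least 191-fold (log2 difference 7.58 ± 0.84 SE, adjusted p = 4.42e-05). Slc10a2, the sodium-dependent bile acid transporter of the apical membrane, was at 7.53, 8.89 and 6.04 in jejunum and at 11.70, 11.77 and 11.57 in ileum, 18.3-fold higher (log2 difference 4.19 ± 0.58 SE, adjusted p = 0.000285). Its ileal arrays lay close together, while the jejunal arrays spread widely, with array 2 highest and array 3 lowest, and the duodenal arrays were lower still, at 4.32, 4.32 and 3.88. Both subunits of the transporter that passes bile acids to the blood rose, Slc51a by 1.23 (adjusted p = 3.46e-05) and Slc51b by 0.88 (adjusted p = 0.0032). Abcc3, a basolateral exporter of conjugates, rose as well (1.29, adjusted p = 0.00256), and Abcc2, an apical one, fell (-1.14, adjusted p = 0.0154). The fall of Abcc2 was not called without ileal array 1 or jejunal array 3 (adjusted p up to 0.0707).

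Receptors and targets of bile acids followed in part. Nr1h4, which encodes FXR, was at 9.12, 9.62 and 9.89 in jejunum and at 11.17, 10.80 and 10.70 in ileum, a rise of 2.54-fold (log2 difference 1.35 ± 0.19 SE, adjusted p = 0.000315). Fgf15, the hormone that FXR induces, was at 4.07, 4.16 and 4.55 in jejunum, below the array medians, and at 6.31, 7.22 and 7.27 in ileum, at least 6.39-fold higher (log2 difference 2.68 ± 0.29 SE, adjusted p = 3.15e-05). Nr0b2 (SHP), another FXR target, was at 5.69, 4.57 and 5.12 in jejunum and 3.99, 4.35 and 4.92 in ileum, where the groups overlapped and no difference was called (adjusted p = 0.162). It was highest in duodenum, at 8.31, 8.57 and 8.00. Nr1i2, the pregnane X receptor, fell 1.42-fold (adjusted p = 0.00963), and the other 2 receptors of the list were not called. Altogether 7 of 12 measured genes of bile acid uptake and signalling rose and 2 fell, with a median difference of 1.06 against -0.02 for all genes. Without ileal array 1, or without jejunal array 3, 1 gene in place of 2 was called lower. Wild-type mice had 6 called higher and 2 lower. The vitamin B12 receptor genes, the other classic ileal uptake system, showed no call with limma among 6 measured genes, 2 of which had an unadjusted p under 0.05. Cubn, the cubilin receptor, was at 11.13, 11.67 and 11.07 in jejunum and 11.86, 12.14 and 12.17 in ileum (adjusted p = 0.314), while the duodenal arrays were at 7.80, 6.81 and 7.64.

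Other large rises were spread over several functions. The 15 genes with the largest rise were named because of their size and because their arrays did not overlap, so these values are a description. 1810065E05Rik, a gene of unknown function, went from 5.14, 5.64 and 5.34 to 11.47, 10.99 and 10.76, a difference 51.9-fold in size. Slc6a14, a transporter of neutral and cationic amino acids, was below the array medians in jejunum, at 3.63, 4.21 and 4.17, and ranged widely in ileum, at 11.44, 6.24 and 8.96. Its ileal array 1 was the highest and array 2 the lowest. The rise of at least 29.4-fold has a standard error of 0.97 on the log2 scale. That error is pooled over the 6 groups of the fit and does not measure the spread of these ileal arrays alone. The call (adjusted p = 0.00502) was lost in a fit of only the Casp1-null ileal and jejunal arrays (adjusted p = 0.078). Suox, which oxidises sulfite to sulfate in mitochondria, was the most even: 7.21, 7.32 and 7.29 in jejunum and 11.15, 11.12 and 11.05 in ileum, a rise of 14.3-fold (log2 difference 3.83 ± 0.16 SE, adjusted p = 3.99e-09). Slc13a1, a sodium-dependent sulfate transporter, rose from 8.73, 9.50 and 7.53 to 12.53, 12.42 and 12.51 (log2 difference 3.90 ± 0.37 SE, adjusted p = 9.98e-06), and here the duodenum, at 12.44, 12.48 and 12.27, resembled the ileum.

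Lipid enzymes formed a further part of the large rises. Scd2, a stearoyl-CoA desaturase, was at 6.23, 6.29 and 6.13 in jejunum and 9.43, 10.34 and 9.66 in ileum, 12.1-fold higher (log2 difference 3.60 ± 0.20 SE, adjusted p = 6.51e-08). Fa2h, which hydroxylates fatty acids of sphingolipids, and Abca12, a lipid transporter of keratinocytes, were below the array medians in jejunum and rose by at least 13.5-fold and 12-fold (adjusted p = 4.8e-06 and 1.47e-05). Pla2g4c, a cytosolic phospholipase, was uneven in jejunum, at 6.06, 7.38 and 4.17, and even in ileum, at 10.42, 10.56 and 9.92 (log2 difference 4.43 ± 0.59 SE, adjusted p = 0.000232). Tat, the tyrosine aminotransferase, was at 9.42, 8.15 and 7.30 in ileum and below the array medians in jejunum, at least 16.1-fold apart (adjusted p = 7.7e-05). Abi3bp, a matrix protein, lay at 7.89, 8.28 and 8.23 in ileum and 3.86, 4.06 and 3.70 in jejunum, at least 19.2-fold apart, and the surface protein gene Plet1 at 11.30, 9.46 and 8.09 and 5.78, 6.06 and 6.40, 11.6-fold apart. Jejunal array 2 was the highest of the jejunal arrays for 12 of these 15 genes, and ileal array 1 the highest of the ileal arrays for 10. Duodenal means lay nearer to jejunum than to ileum for 14 of the 15, Slc13a1 being the exception.

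**Figure D2:**
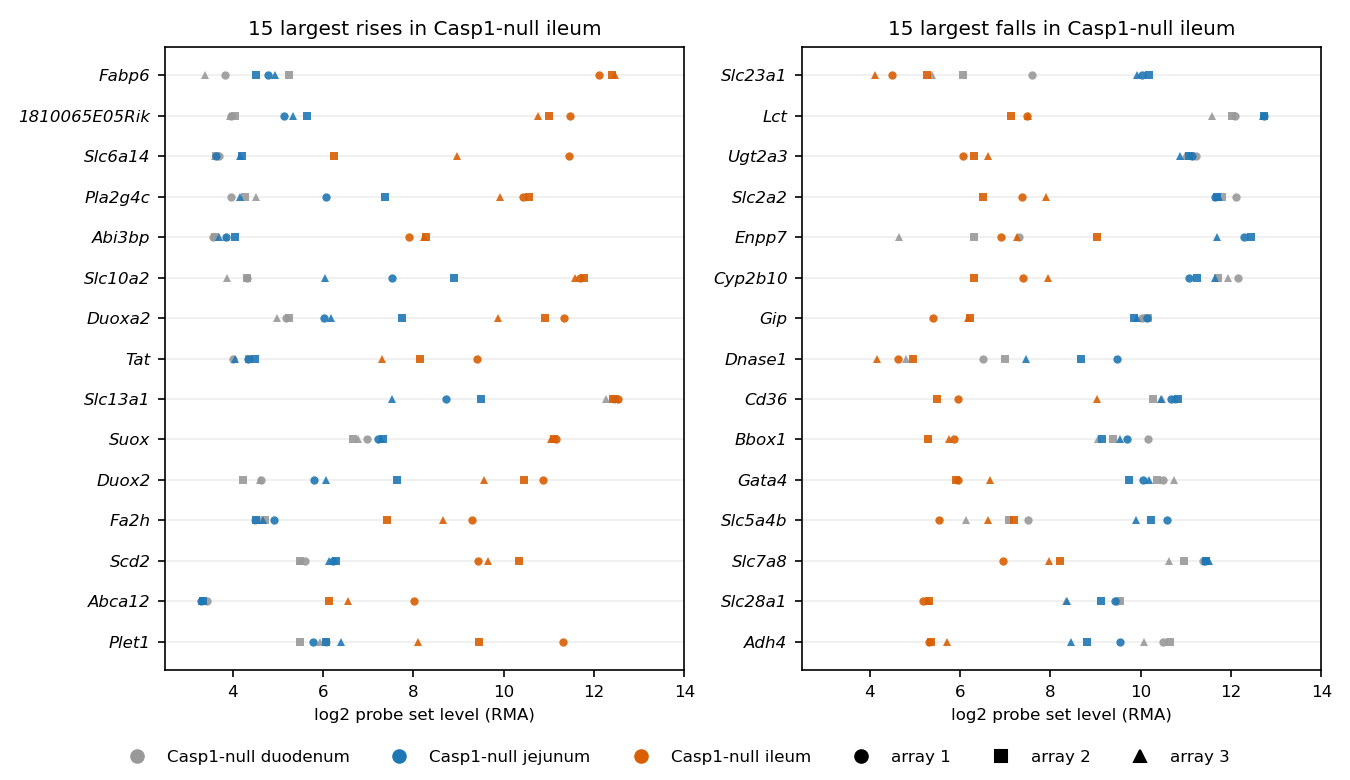
Log2 level (horizontal axis) of the 15 genes with the largest rise (left) and the 15 with the largest fall (right) on each Casp1-null array, for duodenum (grey), jejunum (blue) and ileum (orange), with 1 symbol shape per array number. Fabp6 lies at 12.10 to 12.47 on the ileal arrays against 4.52 to 4.93 on the jejunal ones, and Cd36 on ileal array 3 lies apart from the other ileal arrays.

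Among the largest falls were the enzymes and transporters of sugar, vitamin and fat uptake. Lct, lactase, the milk sugar hydrolase of the brush border, was at 12.73, 12.74 and 12.70 on the jejunal arrays and at 7.48, 7.12 and 7.50 on the ileal arrays. The arrays of each segment lay close together and the segments far apart, a fall of 40.9-fold (log2 difference -5.36 ± 0.40 SE, adjusted p = 1.09e-06). Slc23a1, the sodium-dependent vitamin C transporter, went from 10.03, 10.18 and 9.91 to 4.49, 5.26 and 4.11, below the array medians on average, at least 42.9-fold lower (log2 difference -5.42 ± 0.52 SE, adjusted p = 1.25e-05). Slc2a2 (GLUT2), the basolateral exit path for glucose and fructose, went from 11.65, 11.68 and 11.74 to 7.37, 6.50 and 7.91, 21.5-fold lower (log2 difference -4.43 ± 0.61 SE, adjusted p = 0.00029). Gip, the incretin hormone of proximal K cells, went from 10.14, 9.85 and 9.91 to 5.40, 6.22 and 6.17, 16.4-fold lower (log2 difference -4.03 ± 0.33 SE, adjusted p = 3.26e-06). Gata4 itself was at 10.05, 9.73 and 10.19 in jejunum and 5.95, 5.90 and 6.66 in ileum, a fall of 14.1-fold (log2 difference -3.82 ± 0.26 SE, adjusted p = 6.23e-07).

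The 15 falls, like the rises, were named because of their size and because their arrays did not overlap, so their separation was set by the choice. Cd36, a fatty acid translocase, was at 10.68, 10.82 and 10.45 in jejunum and at 5.95, 5.49 and 9.04 in ileum, where array 3 was far above arrays 1 and 2. The fall (log2 difference -3.83 ± 0.96 SE, adjusted p = 0.0194) was not called without ileal array 1 or 2 or jejunal array 1 or 2 (adjusted p up to 0.0864). Without ileal array 3, the array high in smooth muscle markers, it was -4.93 (adjusted p = 0.00358). In wild-type ileum Cd36 was at 4.49, 8.82 and 4.55, and array 2 was again the one high in those markers. The link was not tested. Ugt2a3, a glucuronosyltransferase, fell 26-fold (adjusted p = 3.2e-08), and Cyp2b10, a cytochrome P450 that xenobiotics induce, 17.3-fold (adjusted p = 1.91e-05). Enpp7, alkaline sphingomyelinase, was at 12.29, 12.44 and 11.69 in jejunum and 6.90, 9.03 and 7.25 in ileum (log2 difference -4.41 ± 0.72 SE, adjusted p = 0.0012), and the duodenum, at 7.31, 6.30 and 4.64, was low as well. Dnase1, a secreted nuclease, fell below the array medians on average, at least 15.6-fold. Bbox1 (last step of carnitine synthesis), Slc7a8 (basolateral exchanger of neutral amino acids), Slc5a4b (a member of the sodium-glucose transporter family), Slc28a1 (nucleoside transporter) and Adh4 (retinol-active alcohol dehydrogenase) fell by 14.1-fold, 13.5-fold, 13.8-fold, 13.1-fold and 11.1-fold. For 11 of the 15 falls the duodenal mean lay nearer to jejunum than to ileum. In wild-type mice, whose arrays entered the choice only through the pooled spread, all 15 rises and all 15 falls had the same direction, and 13 and 15 of them were called.

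Promoter stretches are shown for the genes of this set that hold the core motif of GATA factors, because Gata4 was among the falls. RefSeq windows (GRCm38.p6) of 250 bases before the annotated start were used for 11 of the 15 rises and 13 of the 15 falls. All windows of 1 chromosome were left out, for these genes and for the measured genes. A gene without a window here may therefore still have an annotated start. The windows used were searched on both strands for AGATAA, and for AGGTCA, the core letters that nuclear receptors bind. Neither motif contains the other. AGATAA occurred in 5 of the 13 genes that fell (Lct, Gip, Bbox1, Enpp7 and Ugt2a3) and in 1 of the 11 that rose (Tat), against 9.86% of 14749 measured genes with a window. AGGTCA occurred in 4 of 13 (Adh4, Cd36, Dnase1 and Slc2a2) and in 3 of 11 (1810065E05Rik, Duoxa2 and Plet1), against 14.4%. These are matches of letters, not sites shown to be bound, and no test was made of the shares. Below, sequences run 5′ to 3′ along the gene, with AGATAA or its reverse complement TTATCT in capitals. The windows of Lct and Gip are given whole, since each holds the motif 2 times.
Lct, chr1:128328319-128328568, gene on the - strand: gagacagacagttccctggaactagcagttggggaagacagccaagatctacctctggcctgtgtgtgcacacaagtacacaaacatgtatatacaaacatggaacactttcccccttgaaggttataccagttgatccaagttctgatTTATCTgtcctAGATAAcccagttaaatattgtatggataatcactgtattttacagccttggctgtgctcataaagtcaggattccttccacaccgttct
Gip, chr11:96024295-96024544, gene on the + strand: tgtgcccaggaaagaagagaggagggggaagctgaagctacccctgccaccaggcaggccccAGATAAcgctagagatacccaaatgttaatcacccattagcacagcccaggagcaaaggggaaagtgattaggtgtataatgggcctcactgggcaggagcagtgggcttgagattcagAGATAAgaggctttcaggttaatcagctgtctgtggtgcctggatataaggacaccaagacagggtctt
For the other genes, 30 bases around the match are given.
Bbox1, chr2:110305851-110305880, gene on the - strand: gatgtggcatttTTATCTtacagctagtca
Enpp7, chr11:118988059-118988088, gene on the + strand: gatctccgttagAGATAAaagccatcccag
Ugt2a3, chr5:87337212-87337241, gene on the - strand: ttaatttctttcTTATCTaaattattactc
Tat, chr8:109990227-109990256, gene on the + strand: acagagaattccAGATAAcgtgatgtgtgg
In Lct the copies lie 101 to 96 and 90 to 85 bases before the start, on opposite strands, and in Gip 188 to 183 and 69 to 64 bases before it, on the gene's own strand.

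Most genes of sugar digestion and uptake fell in ileum. All 4 measured disaccharidases did, with Lct first and trehalase (Treh) next (-1.74, adjusted p = 0.000222). Sis, sucrase-isomaltase, fell the least, from 12.97, 13.00 and 12.77 to 12.41, 12.53 and 12.62 (-0.39, adjusted p = 0.0364), and its call was lost without ileal array 1 or 2 or jejunal array 1 or 2 (adjusted p up to 0.147). Of 8 sugar transporters 6 fell and none was called higher. Slc5a1 (SGLT1), the apical glucose transporter, went from 13.06, 13.06 and 13.08 to 12.61, 12.62 and 12.65, a narrow but even fall of 1.35-fold (log2 difference -0.44 ± 0.09 SE, adjusted p = 0.00589). Slc2a5 (GLUT5), the fructose transporter, fell 2.17-fold (adjusted p = 0.02), a call lost without ileal array 1 or 3 or jejunal array 1 or 2 (adjusted p up to 0.0761). Slc5a4a, a relative of SGLT1, fell 9.46-fold (adjusted p = 0.000209).

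Other nutrient transporters moved in both directions. Of 14 genes for peptides and amino acids, 3 rose and 6 fell. Slc15a1 (PEPT1), the peptide transporter, was at 12.60, 12.74 and 12.61 in jejunum and 12.19, 12.06 and 12.30 in ileum, without overlap, and its call (adjusted p = 0.0364) was lost without ileal array 1 or 2 or jejunal array 1, 2 or 3 (adjusted p up to 0.123). Slc6a19, the main apical transporter of neutral amino acids, overlapped between segments and was not called (-0.21, adjusted p = 0.399). Slc46a1, the proton-coupled folate transporter, overlapped between the segments, at 9.83, 8.67 and 8.94 and 8.66, 7.41 and 9.37, and was not called (adjusted p = 0.384). Over all 30 nutrient transporters 5 rose and 14 fell, with a median of -0.67.

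Brush border hydrolases other than disaccharidases were split. Among 11 peptidases, neprilysin (Mme) fell (-1.50, adjusted p = 0.00175) and angiotensin-converting enzyme (Ace) fell (-1.02, adjusted p = 0.00133). Another 8 were not called, with Mep1a, a subunit of meprin, at 0.46 (adjusted p = 0.237). Enteropeptidase (Tmprss15), which activates trypsinogen in the duodenum, was below the array medians in jejunum, at 4.01, 3.94 and 3.89, and at 6.59, 4.87 and 7.10 in ileum (log2 difference 2.24 ± 0.40 SE, adjusted p = 0.0023). Its duodenal arrays were far higher, at 11.45, 11.46 and 11.22, and in wild type, low in both segments, it was not called (adjusted p = 0.998). The Casp1-null call was lost in a fit of only the Casp1-null ileal and jejunal arrays (adjusted p = 0.0745). The alkaline phosphatases went in opposite directions. Akp3 was at 9.50, 7.68 and 7.93 in jejunum, 11.17, 10.04 and 12.22 in ileum and 13.26, 13.18 and 13.26 in duodenum, a rise from jejunum to ileum of 6.82-fold (log2 difference 2.77 ± 0.53 SE, adjusted p = 0.0038). Without ileal array 3, the highest, the difference was 2.23 (adjusted p = 0.0175). The call was lost in a fit of only the Casp1-null ileal and jejunal arrays (adjusted p = 0.0767). In wild type Akp3 was not called (1.03, adjusted p = 0.257). Alpi, the second intestinal isozyme, was at 12.16, 12.20 and 12.01 in jejunum and 11.36, 11.44 and 11.89 in ileum (-0.56, adjusted p = 0.0263), a call lost without ileal array 1 or 2 or jejunal array 1 or 2 (adjusted p up to 0.121). Neutral ceramidase (Asah2) fell (-2.68, adjusted p = 0.00015), and so did Enpp3, a nucleotide hydrolase (-2.22, adjusted p = 0.000275). In all, 10 of 21 brush border hydrolases fell and 2 rose.

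Genes of fat absorption, the process that the oil load engages, held more falls than rises in each of 4 steps. Of 43 measured genes 21 fell and 2 rose, with a median of -0.41. Without jejunal array 1 the falls numbered 13, and without ileal array 3 they numbered 16, with 1 rise. Among 8 genes of fatty acid uptake and binding, Fabp1, the liver-type binding protein, went from 12.70, 12.69 and 12.47 to 10.49, 10.96 and 11.10, 3.41-fold lower (log2 difference -1.77 ± 0.21 SE, adjusted p = 8.87e-05). Fabp2, the intestinal-type protein, was at 13.15, 13.22 and 12.98 and 12.88, 12.87 and 13.02, with overlapping arrays and no call (-0.20, adjusted p = 0.213). The 3 binding proteins, Fabp6 included, therefore had a fall, no call and the largest rise of all genes. Slc27a2, which activates very long chain fatty acids, fell (-1.36, adjusted p = 5.19e-05).

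Triglyceride synthesis held 6 falls and 1 rise among 11 genes. Mogat2, which makes diacylglycerol from absorbed monoacylglycerol, went from 12.12, 11.96 and 11.94 to 11.36, 11.70 and 11.39 (-0.53, adjusted p = 0.0158), a call lost without ileal array 1 or 3 or jejunal array 1 (adjusted p up to 0.0751). The last step is catalysed by Dgat1 and Dgat2. Dgat1 was at 12.18, 12.24 and 12.09 in jejunum and 11.62, 11.69 and 11.71 in ileum (log2 difference -0.49 ± 0.10 SE, adjusted p = 0.00463), and Dgat2 at 12.23, 12.12 and 12.40 and 11.09, 11.21 and 10.97 (log2 difference -1.16 ± 0.14 SE, adjusted p = 7.35e-05). Both fell without overlap, by 1.41-fold and 2.24-fold. Agpat3, a lysophosphatidic acid acyltransferase, fell the most of the 11 (-2.19, adjusted p = 6.66e-07), and Gpat4, an acyltransferase of the first step, rose (0.87, adjusted p = 0.00014).

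Lipoprotein assembly followed the same direction with smaller steps. Mttp, the microsomal protein that loads lipid onto apolipoprotein B, was at 12.75, 12.67 and 12.75 in jejunum and 11.87, 12.03 and 11.87 in ileum, a fall of 1.74-fold (log2 difference -0.80 ± 0.10 SE, adjusted p = 0.000129). Apob itself was at 12.78, 12.85 and 12.71 and 12.62, 12.44 and 12.60 and was not called (-0.23, adjusted p = 0.179). Nor was Apoa1 (-0.16, adjusted p = 0.264). Apoc3, an inhibitor of lipoprotein lipase, fell 2.75-fold (adjusted p = 0.00158). Apoa4, which marks the large chylomicrons, fell 1.46-fold by its brighter probe set (adjusted p = 0.0129), and a dimmer set of the gene gave -0.72 (adjusted p = 0.101). Apoc2, the activator of that lipase, fell (-0.96, adjusted p = 0.0219), a call lost without ileal array 1 or 3 or jejunal array 1, 2 or 3 (adjusted p up to 0.0777). In all, 7 of 15 genes of assembly and export fell and none rose. Of 9 droplet and lipase genes 4 fell, among them lysosomal acid lipase, Lipa (-1.13, adjusted p = 0.000328). Monoacylglycerol lipase, Mgll, rose (1.47, adjusted p = 0.0102), from below the array medians in jejunum, a call lost without ileal array 3 (adjusted p = 0.0503). Plin2, a droplet coat protein, fell (-0.90, adjusted p = 0.0461), a call lost without ileal array 1 or 3 or jejunal array 1 or 3 (adjusted p up to 0.209).

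Among 12 carboxylesterases and relatives, 3 rose and 2 fell. Aadac, arylacetamide deacetylase, went from 10.45, 9.81 and 9.32 to 6.12, 6.44 and 6.74, 10.8-fold lower (log2 difference -3.43 ± 0.26 SE, adjusted p = 1.46e-06), and Ces2g fell 3.58-fold (adjusted p = 0.000791). Ces2e was at 12.01, 11.89 and 11.73 and 11.80, 11.73 and 11.72, with overlap (-0.13, adjusted p = 0.521). The rises were those of Ces1f (0.75, adjusted p = 0.0299), Ces1g (0.94, adjusted p = 0.0362) and Ces2a (0.97, adjusted p = 0.0295). None of the 3 was called without ileal array 1 or without jejunal array 2, and 1 of the 3 without ileal array 2, ileal array 3 or jejunal array 3. Ces1f was not called without ileal array 1 or 2 or jejunal array 2 or 3 (adjusted p up to 0.131), Ces1g not without ileal array 1, 2 or 3 or jejunal array 2 or 3 (adjusted p up to 0.156) and Ces2a not without ileal array 1 or 3 or jejunal array 1 or 2 (adjusted p up to 0.132). These genes form a family of close copies, and probe sets may share signal.

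Cholesterol synthesis was higher in ileum. Of 18 measured enzymes and regulators of synthesis 13 rose, with a median of 1.03. Sqle, squalene epoxidase, was at 8.64, 9.13 and 8.83 in jejunum and 10.70, 11.01 and 10.27 in ileum, 3.47-fold higher (log2 difference 1.79 ± 0.36 SE, adjusted p = 0.00481). Fdft1, squalene synthase, rose 3.59-fold (adjusted p = 0.00177), and Mvd, of the mevalonate steps, 3.33-fold (adjusted p = 0.00111). Nsdhl and Tm7sf2, which act after lanosterol, rose by 1.47 and 1.36 on the log2 scale (adjusted p = 4.32e-05 and 8.88e-05). The other 5 genes of synthesis were not called.

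Sterol transporters gave no such rise. Npc1l1, the apical sterol importer, was at 12.40, 12.52 and 12.34 and 12.27, 12.25 and 12.11 and was not called (-0.21, adjusted p = 0.545). Abca1, which exports cholesterol to high-density lipoprotein, went from 8.20, 8.91 and 9.39 to 5.45, 5.05 and 7.90, where array 3 was the highest, a fall of 6.5-fold (log2 difference -2.70 ± 0.57 SE, adjusted p = 0.00728). This call was lost in a fit of only the Casp1-null ileal and jejunal arrays (adjusted p = 0.11). The paired transporters Abcg5 and Abcg8, which return sterols to the lumen, differed by -0.49 and -0.37. Only Abcg5 was called (adjusted p = 0.0354), and not without ileal array 1 or 2 or jejunal array 1, 2 or 3 (adjusted p up to 0.107). Over the whole list of 23 cholesterol genes 13 rose and 2 fell. The rises numbered 8 without ileal array 1, without ileal array 2, without jejunal array 1 or without jejunal array 2, and 12 without ileal array 3. The falls were 1 in place of 2 without ileal array 1 or 2 or any 1 jejunal array. Wild-type mice had 15 rises and 2 falls.

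Retinoid enzymes, which turn dietary carotene into stored and active vitamin A, changed in both directions. Of 18 measured genes 7 fell and 3 rose, with a median of -0.88. Rbp2, the cellular retinol binding protein of enterocytes, went from 12.74, 12.55 and 12.32 to 11.34, 11.34 and 11.41 (log2 difference -1.17 ± 0.21 SE, adjusted p = 0.00225). Rdh7, a retinol dehydrogenase, fell 7.9-fold (adjusted p = 9.41e-07), and the alcohol dehydrogenases Adh1 and Adh6a fell 3.54-fold and 6.23-fold (adjusted p = 6.18e-05 and 0.000236). Bco1, the enzyme that cleaves beta-carotene, went the other way, from 4.92, 5.35 and 5.19 in jejunum to 7.84, 7.77 and 7.89 in ileum, 6.41-fold higher (log2 difference 2.68 ± 0.26 SE, adjusted p = 1.49e-05), without overlap. Aldh1a1, which makes retinoic acid, rose (0.83, adjusted p = 0.0284), a call lost without ileal array 1, 2 or 3 or jejunal array 2 or 3 (adjusted p up to 0.116). Rises in this list numbered 1 in place of 3 without ileal array 1, without ileal array 2 or without jejunal array 2.

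Genes of drug metabolism held more falls than rises. Of 43 genes 14 fell and 6 rose, with a median of -0.21, and 3 rose without ileal array 3. Of 21 cytochromes P450, 8 fell and 1 rose. Cyp3a11, the main xenobiotic cytochrome of mouse gut, was at 12.02, 12.36 and 12.45 in jejunum and 10.38, 9.69 and 11.59 in ileum, where array 3 was the highest (log2 difference -1.73 ± 0.36 SE, adjusted p = 0.00663). This call was lost in a fit of only the Casp1-null ileal and jejunal arrays (adjusted p = 0.0955). Cyp2d26 and Cyp27a1, the sterol 27-hydroxylase, fell 4.28-fold and 2.62-fold (adjusted p = 2.08e-05 and 0.0041). Cyp2c65 was not called (-0.73, adjusted p = 0.0533). Gstm3, a glutathione transferase, fell (-1.47, adjusted p = 0.000763), and Ephx2, the soluble epoxide hydrolase, fell (-1.39, adjusted p = 0.000259). All 3 efflux pumps of the list rose. Abcg2 was at 9.83, 9.80 and 9.48 in jejunum and 10.99, 10.74 and 10.83 in ileum (log2 difference 1.15 ± 0.14 SE, adjusted p = 0.000109), and Abcb1a, a P-glycoprotein, at 10.90, 11.33 and 11.33 and 11.89, 11.86 and 12.13 (0.78, adjusted p = 0.0119), a call lost without ileal array 3 or jejunal array 1 (adjusted p up to 0.0589). Members of the P450 and glutathione transferase families are close copies whose probe sets may share signal.

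Fatty acid oxidation, with its 30 measured genes, showed 3 rises and 7 falls, with a median of -0.05. Without ileal array 1 there were 1 rise and 2 falls, without jejunal array 1 there were 4 falls, and without ileal array 2, ileal array 3 or jejunal array 2 there was 1 rise. Cpt1a, which admits fatty acids to mitochondria, was at 10.31, 10.39 and 10.70 and 10.96, 11.02 and 11.02 (0.53, adjusted p = 0.0331), a call lost without ileal array 1, 2 or 3 or jejunal array 1 or 2 (adjusted p up to 0.126). Slc25a20, the carnitine carrier, rose evenly (0.75, adjusted p = 0.000266), and the coactivator Ppargc1a fell (-0.88, adjusted p = 0.00623).

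Mineral and ion transport differed gene by gene. Among 9 iron genes, ferroportin (Slc40a1), the basolateral iron exporter, was at 5.47, 4.77 and 5.41 in jejunum and 7.95, 6.53 and 8.31 in ileum, 5.21-fold higher (log2 difference 2.38 ± 0.35 SE, adjusted p = 0.000449), and the duodenum was higher than both, at 11.36, 11.54 and 11.90. Cybrd1, the duodenal iron reductase, was at 4.90, 4.78 and 4.97 in jejunum and 5.72, 6.65 and 9.56 in ileum, where array 3 stood apart, and was not called (2.43, adjusted p = 0.0824). Flvcr1, a heme exporter, fell (-1.33, adjusted p = 0.000576). Of the calcium genes, S100g (calbindin-D9k) was at 7.30, 6.06 and 5.91 in jejunum, 8.61, 8.14 and 9.87 in ileum and 12.26, 12.62 and 12.58 in duodenum (log2 difference 2.45 ± 0.41 SE, adjusted p = 0.00133). Its call was lost in a fit of only the Casp1-null ileal and jejunal arrays (adjusted p = 0.0609). The plasma membrane calcium pump Atp2b1 rose as well (0.92, adjusted p = 0.00168), and the apical channel Trpv6, low in both segments, was not called (adjusted p = 0.79). Slc34a2, the phosphate transporter that is near background in duodenum at 3.43, 4.75 and 3.35, was at 11.39, 11.36 and 10.70 in jejunum and 12.16, 12.02 and 12.25 in ileum and was not called (1.00, adjusted p = 0.136). In this list of 19 genes 4 rose and 3 fell. The falls numbered 1 without ileal array 1, ileal array 3, jejunal array 2 or jejunal array 3.

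Of 28 genes of ion transport and the guanylin pathway 4 rose and 8 fell. The hormones guanylin (Guca2a) and uroguanylin (Guca2b) were not called, with differences of 0.48 and -0.23 (adjusted p = 0.327 and 0.197). The sodium-proton exchanger Slc9a3 fell (-1.70, adjusted p = 0.00551), and the water channels Aqp1 (-1.93, adjusted p = 0.00899) and Aqp3 (-2.16, adjusted p = 4.17e-06) fell with it. Slc9a3 was not called in a fit of only the Casp1-null ileal and jejunal arrays (adjusted p = 0.068). The chloride channel Cftr overlapped between segments (0.24, adjusted p = 0.588). Without ileal array 1 the counts were 2 rises and 5 falls, and without jejunal array 1 there were 2 rises. Of 15 claudin and junction genes, Cldn2, a claudin that forms cation pores, went from 6.64, 6.05 and 6.88 to 9.13, 9.52 and 9.31, 6.95-fold higher (log2 difference 2.80 ± 0.25 SE, adjusted p = 7.33e-06). Cldn15, also pore-forming, fell (-0.70, adjusted p = 0.00163).

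Hormones of the enteroendocrine cells moved in both directions. Gip fell, as given above, and cholecystokinin (Cck) fell (-1.11, adjusted p = 0.0152), the latter a call lost without ileal array 1 or 3 or jejunal array 1 (adjusted p up to 0.0634). Peptide YY (Pyy), an ileal and colonic hormone, was at 7.14, 7.67 and 7.22 in jejunum and 8.78, 9.44 and 8.63 in ileum (log2 difference 1.61 ± 0.37 SE, adjusted p = 0.0129), and proglucagon (Gcg), the source of GLP-1, at 8.44, 8.34 and 8.62 and 9.41, 9.38 and 9.30 (log2 difference 0.90 ± 0.21 SE, adjusted p = 0.0147). Both rose without overlap, but Pyy was not called without ileal array 2 (adjusted p = 0.0518), nor Gcg without ileal array 1 or jejunal array 2 (adjusted p up to 0.0573). Tac1, the precursor of substance P, rose (2.20, adjusted p = 0.00432), and neurotensin (Nts) overlapped between the segments (-0.13, adjusted p = 0.816). Of 9 genes shared by hormone cells 4 fell and 5 were not called, with a median of -0.29. Chromogranin A (Chga) went from 9.85, 9.73 and 10.27 to 8.38, 9.03 and 8.57 (log2 difference -1.29 ± 0.19 SE, adjusted p = 0.000586), and Chgb (-1.25, adjusted p = 0.000255) and Tph1, of serotonin synthesis (-1.27, adjusted p = 0.0015), fell too. In all 7 of 20 genes fell and 3 rose, and 4 fell without ileal array 1, ileal array 3 or jejunal array 1.

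Transcription factors of position were measured for 42 genes, of which 9 rose and 7 fell. Gata6, the relative of Gata4, was at 11.54, 11.45 and 11.64 in jejunum and 10.63, 11.02 and 10.49 in ileum, a fall of 1.77-fold (log2 difference -0.83 ± 0.15 SE, adjusted p = 0.0025). Osr2, a zinc finger factor, was at 4.43, 4.50 and 4.74 in duodenum, 8.97, 9.15 and 8.51 in jejunum and 9.87, 9.70 and 9.83 in ileum, so that its step from jejunum to ileum (log2 difference 0.93 ± 0.15 SE, adjusted p = 0.000924) was the smaller one. The homeobox genes Hoxb6 and Hoxb9 were below the array medians in jejunum and rose by at least 3.83-fold and 4.73-fold (adjusted p = 0.000428 and 6.52e-05). Cdx2, which specifies intestine, and Hnf4a, a factor of enterocyte identity, were not called, with differences of 0.29 and 0.25. Pdx1, the duodenal factor, was at 9.73, 9.86 and 9.80 in duodenum and low in both other segments, at 4.27, 4.17 and 3.87 and 4.75, 4.20 and 5.41. Ehf, an epithelial ETS factor, rose (2.10, adjusted p = 3e-05), and Nr5a2 (LRH-1) rose (1.13, adjusted p = 0.00385). Onecut2 (-1.63, adjusted p = 0.00167), Creb3l3 (-1.11, adjusted p = 0.00337), which acts in lipid metabolism, and the liver X receptor Nr1h3 (-0.66, adjusted p = 0.00365) fell.

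**Figure D3:**
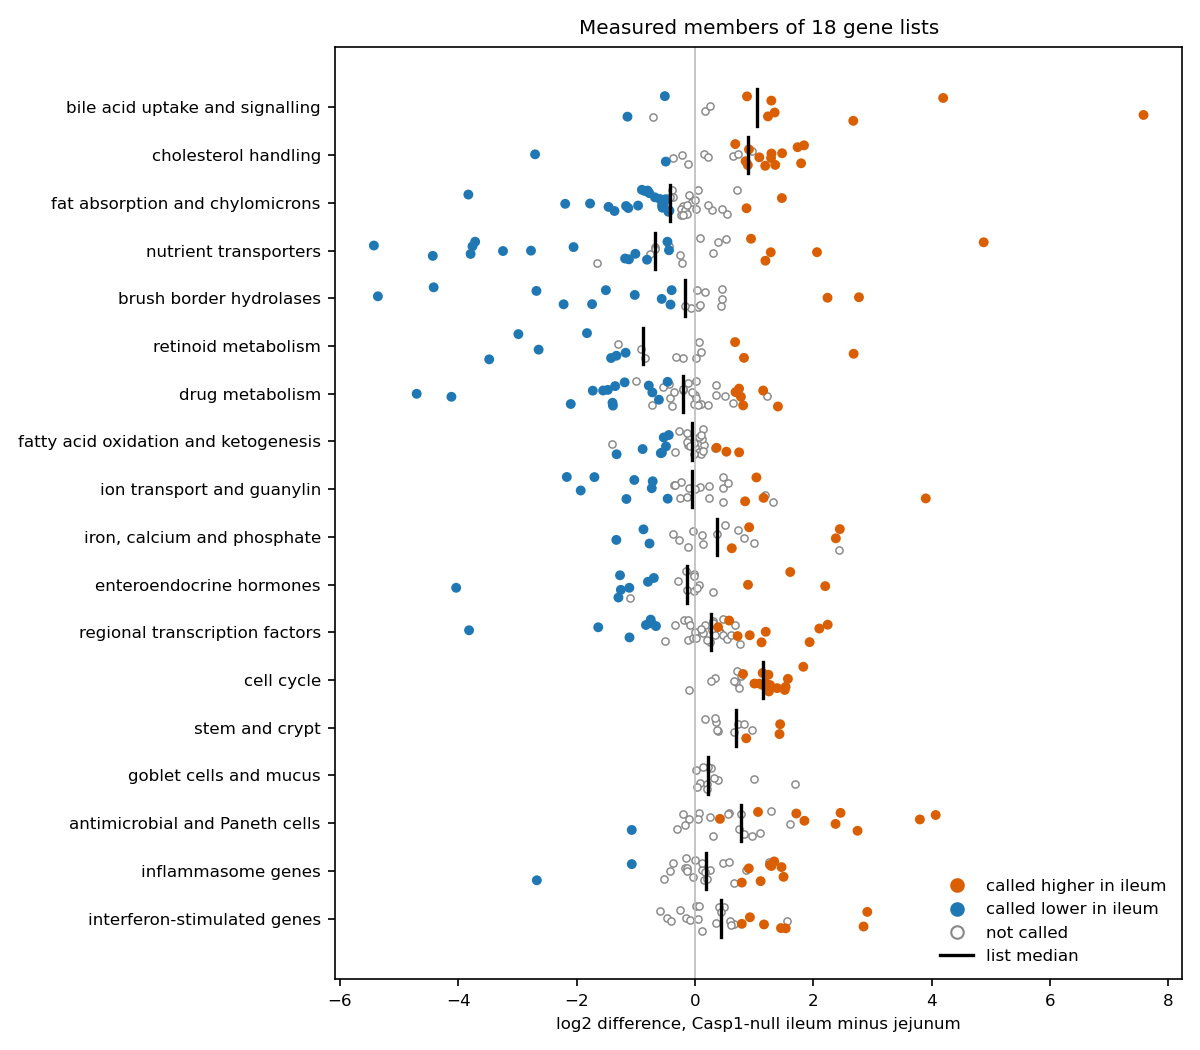
Log2 difference between Casp1-null ileum and jejunum (horizontal axis) of each measured gene of 18 lists, 1 point a gene, filled where called (orange higher, blue lower in ileum) and open where not, with a bar at the list's median. Medians range from -0.88 for retinoid metabolism to 1.14 for the cell cycle.

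Cell cycle genes were higher in ileum. Of 25 measured genes 17 rose, with a median of 1.14, and none was called lower, also at an unadjusted p under 0.05. The proliferation antigen Mki67 was at 6.94, 7.25 and 6.68 in jejunum and 8.83, 8.19 and 8.56 in ileum, 2.97-fold higher (log2 difference 1.57 ± 0.32 SE, adjusted p = 0.0058), without overlap. Ccna2 and Ccnb2, cyclins of S phase and mitosis, rose 3.56-fold and 2.89-fold (adjusted p = 0.00276 and 0.00165), and the mitotic kinase Plk1 2.86-fold (adjusted p = 0.00341). Without ileal array 1 the rises numbered 8, without jejunal array 1 they numbered 11, and without ileal array 3 they numbered 14. The mean of the list lay at 6.19, 6.27 and 6.32 on the jejunal arrays and at 7.52, 7.16 and 7.18 on the ileal arrays, array 1 being the highest. In wild type it lay at 6.12, 6.76 and 6.62 in jejunum and at 7.15, 8.20 and 7.33 in ileum, where array 2, the array high in smooth muscle markers, was the highest. That array was also the highest in crypt base genes, with a mean of 7.80 against 6.82 and 7.03 on the other wild-type ileal arrays. Of 12 genes of the crypt base 3 rose: Lgr5, the stem cell receptor (1.43, adjusted p = 0.021), Ascl2 (0.87, adjusted p = 0.0063) and Prom1 (1.44, adjusted p = 0.000553). The call of Lgr5 was lost without ileal array 1 or 3 or jejunal array 1 or 2 (adjusted p up to 0.0805). A dimmer second probe set of Prom1 gave -0.07 (adjusted p = 0.785). How much crypt each scraping took was not tested.

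Few markers of other cells were called, where 12.8% of all genes were. With limma, no gene was called among 12 of goblet cells and mucus, 19 of T and intraepithelial lymphocytes, 17 of B and plasma cells, 9 of the epithelium over Peyer patches, 16 of exocrine pancreas or 7 of nerve and glia. At an unadjusted p under 0.05 those lists held 5, 2, 0, 3, 0 and 0 genes, against 4855 of all 18820 genes. The 5 genes of goblet cells and mucus were all higher in ileum. The mean of that list was 9.85, 9.79 and 9.84 on the jejunal and 10.41, 10.15 and 10.06 on the ileal arrays. Muc2, the gel-forming mucin, was at 12.84, 12.83 and 13.01 in jejunum and 13.20, 13.16 and 13.13 in ileum (0.27, adjusted p = 0.12), and the goblet cell peptide Tff3 overlapped between segments (0.08, adjusted p = 0.754). Of 19 myeloid markers 1 fell, Tyrobp (-0.78, adjusted p = 0.0373), with overlapping arrays and a call lost without ileal array 1 or 2 or jejunal array 1 or 3 (adjusted p up to 0.151). Of 20 smooth muscle and stroma markers 1 rose, Pdgfrb (1.69, adjusted p = 0.0139), a call lost without ileal array 2 or jejunal array 1 or 2 (adjusted p up to 0.0685), and of 14 endothelial markers Lyve1, of lymph vessels (1.05, adjusted p = 0.00742).

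Defence genes of the epithelium rose in larger numbers than fell. Of 27 antimicrobial and Paneth cell genes 9 rose and 1 fell, with a median of 0.78. Without ileal array 3, 8 rose, and the fall, that of Il18, was not called without ileal array 2 or 3 or any 1 jejunal array. Duox2, the oxidase that makes hydrogen peroxide at the apical surface, was at 5.79, 7.63 and 6.06 in jejunum and 10.88, 10.44 and 9.56 in ileum. Its maturation factor Duoxa2 was at 6.01, 7.74 and 6.18 and 11.33, 10.92 and 9.87. Both genes were among the 15 largest rises, so the separation of their ileal from their jejunal arrays was set by the choice. In both, jejunal array 2 was the highest of the jejunal arrays. The rises were 13.9-fold (log2 difference 3.80 ± 0.70 SE, adjusted p = 0.00286) and 16.8-fold (log2 difference 4.07 ± 0.62 SE, adjusted p = 0.000682). Nos2, the inducible nitric oxide synthase, went from 7.62, 8.54 and 9.01 to 11.53, 10.72 and 11.15 (log2 difference 2.75 ± 0.54 SE, adjusted p = 0.00484), and Ubd, an interferon-inducible ubiquitin-like protein, from 4.996, 4.37 and 4.76, below the array medians on average, to 8.29, 6.72 and 6.51 (log2 difference 2.46 ± 0.50 SE, adjusted p = 0.0054). Pglyrp1, which binds peptidoglycan, rose evenly, from 8.65, 8.89 and 9.18 to 10.86, 10.75 and 10.66 (log2 difference 1.85 ± 0.15 SE, adjusted p = 2.69e-06).

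Products of Paneth cells gave 2 rises among 6 measured genes. The phospholipase Pla2g2a went from 5.78, 5.39 and 6.56 to 8.47, 8.11 and 8.27, 5.19-fold higher (log2 difference 2.38 ± 0.39 SE, adjusted p = 0.00133). The matrilysin Mmp7 rose (1.71, adjusted p = 0.0337), a call lost without ileal array 1 or 3 or jejunal array 1 or 2 (adjusted p up to 0.136). Lysozyme (Lyz1) was at 12.24, 11.20 and 12.59 in jejunum and 12.68, 12.76 and 13.09 in ileum and was not called (0.83, adjusted p = 0.258), the second jejunal array being the lowest. The lectins Reg3b and Reg3g were high in both segments, at 13.13, 12.97 and 13.07 and 12.93, 12.83 and 12.74 in ileum, and were not called (adjusted p = 0.562 and 0.297). Ccl25, the chemokine of the small intestine, overlapped between segments (0.06, adjusted p = 0.784).

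Of 30 inflammasome genes 8 rose and 2 fell, 33.3% against 12.8% of all genes called, in mice that lack the shared protease. Casp1 itself, the targeted gene, was among the rises. In both segments 10 of the 30 genes were below the array medians on average. The sensors Naip5 and Naip6, which bind bacterial flagellin for the Nlrc4 inflammasome, went from 9.47, 9.65 and 9.20 to 11.05, 10.75 and 10.91 and from 9.97, 9.84 and 9.67 to 11.15, 11.11 and 11.24. Both rose without overlap, 2.76-fold (log2 difference 1.46 ± 0.15 SE, adjusted p = 2.71e-05) and 2.53-fold (log2 difference 1.34 ± 0.11 SE, adjusted p = 2.62e-06). Nlrp6, a sensor of the epithelium, overlapped between the segments (adjusted p = 0.994), and Nlrp9b was not called (0.66, adjusted p = 0.382). Casp12, a neighbour of Casp1 on its chromosome, rose from below the array medians by at least 2.82-fold (adjusted p = 0.00427). Il18, a cytokine that caspase-1 matures, was at 9.06, 9.17 and 8.92 in jejunum and 8.48, 7.54 and 7.93 in ileum (log2 difference -1.07 ± 0.32 SE, adjusted p = 0.0455), a fall whose call was lost without ileal array 2 or 3 or jejunal array 1, 2 or 3 (adjusted p up to 0.152). Il33, an alarmin of the same cytokine family, fell 6.37-fold, from 7.80, 7.59 and 7.27 to 4.46, 4.54 and 5.66 (log2 difference -2.67 ± 0.35 SE, adjusted p = 0.000206). The falls of this list were 1 in place of 2 without ileal array 2 or 3 or without any 1 jejunal array.

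Interferon-stimulated genes showed 7 rises among 25, with a median of 0.44. The chemokine Cxcl9 was at 6.29, 5.71 and 6.53 in jejunum and 9.55, 8.93 and 8.78 in ileum, 7.53-fold higher (log2 difference 2.91 ± 0.41 SE, adjusted p = 0.00039). The guanylate-binding protein Gbp2 rose 7.2-fold, from 6.73, 6.13 and 6.34 to 10.04, 8.96 and 8.74 (log2 difference 2.85 ± 0.55 SE, adjusted p = 0.00381). Only 2 rises were called without ileal array 1, ileal array 3 or jejunal array 2, and 4 without jejunal array 1. In wild type 2 of the 25 were higher and 2 lower. Of 7 genes of MHC class II presentation 1 was called, 14.3% against 12.8% of all genes. It was the regulator Ciita, which rose (1.13, adjusted p = 0.0257), a call lost without ileal array 1 or 3 or jejunal array 2 or 3 (adjusted p up to 0.102). H2-Aa (0.42, adjusted p = 0.487) and Cd74 (0.22, adjusted p = 0.665) were not called. Among 17 immediate early genes 1 rose and 1 fell, 11.8% against 12.8% of all genes called. Fosb went from 7.66, 8.64 and 7.96 to 4.96, 6.29 and 5.85, 5.22-fold lower (log2 difference -2.38 ± 0.29 SE, adjusted p = 0.000119). Jun rose (0.65, adjusted p = 0.0158), a call lost without ileal array 1 or 3 or jejunal array 3 (adjusted p up to 0.0721). Fos overlapped between segments (0.72, adjusted p = 0.422).

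Wild-type mice, whose arrays enter the Casp1-null comparison only through the pooled spread, showed the same direction for most called genes. In wild-type ileum against jejunum 1636 genes were higher (8.69%) and 1269 lower (6.74%). Higher genes numbered 1007 without wild-type jejunal array 1, and lower genes 831 without wild-type ileal array 2. Of the 2417 genes called in Casp1-null mice, 2365 (97.8%) had the same sign in wild type, and 1721 were called there in the same direction, which is 71.2% of the Casp1-null calls and 59.2% of the wild-type calls. Ubd alone was called in opposite directions: in wild type it was at 8.46, 8.19 and 7.95 in jejunum and 6.81, 6.20 and 6.74 in ileum (log2 difference -1.62, adjusted p = 0.0466). Across all genes the differences of both genotypes correlated with Pearson's r of 0.828, a description over genes, which are not replicates. A further 695 genes were called in Casp1-null and not in wild type, and 1183 in wild type and not in Casp1-null. A call in 1 genotype alone does not show a difference between them. Cell cycle genes, of which 20 of 25 were called higher in wild type (with array 2 of the ileum the highest, as given above), and fat absorption genes, of which 27 of 43 were called lower, had wild-type medians of 1.12 and -0.56. Antimicrobial and Paneth cell genes had 6 higher and 3 lower, with a median of 0.03 against 0.78 in Casp1-null mice. The parts of that list differed. Of 6 Paneth cell products 4 were higher in wild type, with a median of 1.55 against 0.80 in Casp1-null mice. Of 21 epithelial lectin and defence genes 2 were higher and 3 lower in wild type, with a median of -0.13 against 0.74. No gene of the list was called for a difference between genotypes.

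**Figure D4:**
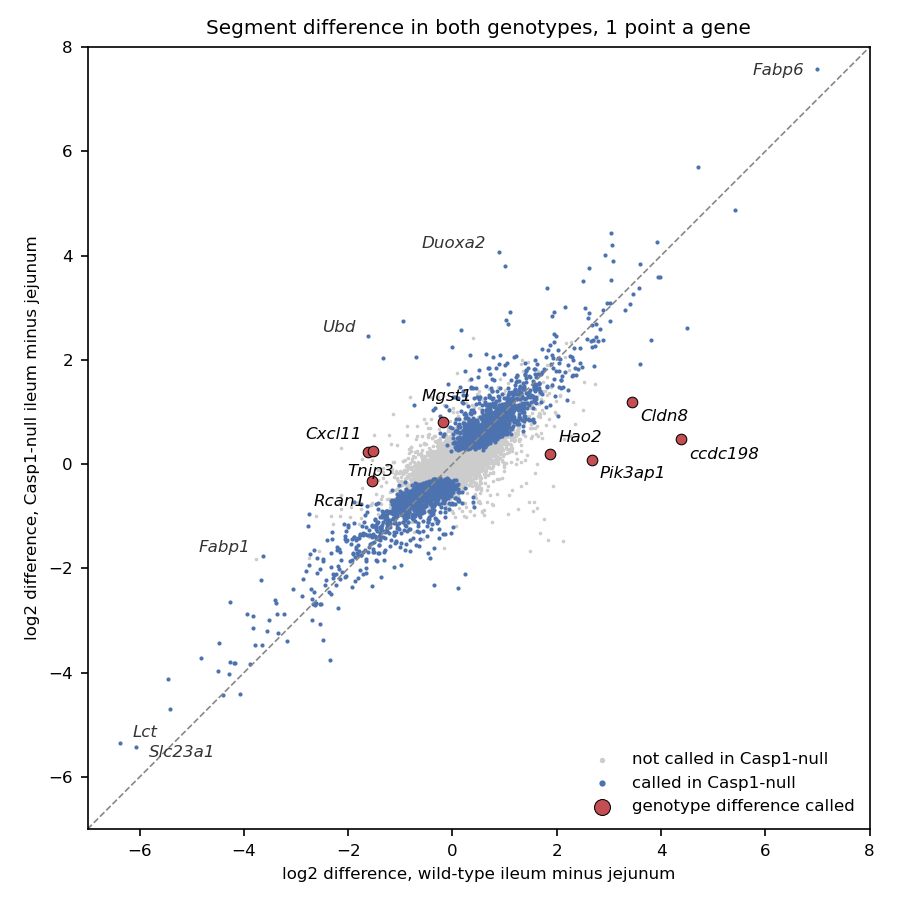
Log2 difference between ileum and jejunum in wild-type (horizontal axis) and Casp1-null mice (vertical axis), 1 point a gene, with genes called in Casp1-null in blue, other genes in grey and the 8 genes called for the difference between genotypes in red. The dashed line marks equal differences; Pearson's r across genes was 0.828.

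The difference between the genotypes' segment differences was tested for every gene, and 8 of 18820 (0.0425%) were called, with 966 at an unadjusted p under 0.05. In 4 of them a rise in wild-type ileum was smaller or not called in Casp1-null mice. Pik3ap1, an adaptor of phosphoinositide 3-kinase, was at 6.29, 6.53 and 6.77 in jejunum and 6.70, 6.60 and 6.54 in ileum of Casp1-null mice, with overlap, and at 7.31, 6.88 and 6.52 and 9.72, 9.32 and 9.67 in wild type (genotype difference -2.58 ± 0.24 SE, adjusted p = 0.000853). The wild-type ileal arrays stood above all others. The same held for ccdc198, a coiled-coil protein, with 3.29, 3.87 and 3.60 in Casp1-null and 8.96, 8.12 and 8.33 in wild-type ileum (-3.89 ± 0.38 SE, adjusted p = 0.000854), and for the claudin gene Cldn8, with 5.41, 4.68 and 4.91 and 7.16, 7.48 and 7.14 (-2.25 ± 0.23 SE, adjusted p = 0.00103). Cldn8 still rose in Casp1-null ileum, from 3.71, 3.94 and 3.80, below the array medians in jejunum (log2 difference 1.18 ± 0.16 SE, adjusted p = 0.00032). Hao2, a peroxisomal hydroxy acid oxidase, was low in both segments of Casp1-null mice, at 3.20, 3.18 and 3.39 and 3.37, 3.63 and 3.35, and reached 4.97, 5.42 and 5.08 in wild-type ileum (-1.68 ± 0.19 SE, adjusted p = 0.002).

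The other 4 genes had a fall in wild type that was not called in Casp1-null, or a rise in Casp1-null. Tnip3, an inhibitor of NF-kappaB signalling, was at 5.63, 5.53 and 5.79 in wild-type jejunum and 4.10, 4.17 and 4.08 in wild-type ileum, and low in both segments of Casp1-null mice, at 3.73, 3.59 and 3.85 and 4.14, 4.15 and 3.60 (1.78 ± 0.20 SE, adjusted p = 0.00177). Cxcl11, an interferon-inducible chemokine, overlapped between Casp1-null segments, at 7.89, 7.62 and 7.38 and 7.81, 7.95 and 7.85, and fell in wild type from 7.73, 7.57 and 7.90 to 6.36, 5.66 and 6.30 (1.87 ± 0.26 SE, adjusted p = 0.0186). Rcan1, a calcineurin regulator, fell in wild type from 9.02, 9.18 and 9.58 to 7.87, 7.56 and 7.70 and was not called in Casp1-null (1.22 ± 0.19 SE, adjusted p = 0.0473). Mgst1, a microsomal glutathione transferase, rose in Casp1-null mice, from 10.04, 10.44 and 10.32 to 11.06, 10.99 and 11.21 (log2 difference 0.82 ± 0.11 SE, adjusted p = 0.00021), and not in wild type (-0.19, adjusted p = 0.324), with a genotype difference of 1.00 ± 0.15 SE, adjusted p = 0.0373. The first 4 genes and Tnip3 were called without each of the 12 arrays in turn. Cxcl11 was not called without Casp1-null ileal array 3, jejunal array 2 or 3, or wild-type jejunal array 1 or 3 (adjusted p up to 0.0599). Mgst1 lost its call without 9 of the 12 arrays (adjusted p up to 0.122); it held without Casp1-null ileal array 2, jejunal array 2 or wild-type ileal array 2. Rcan1 lost its call without 10 of the 12 (adjusted p up to 0.148), all but wild-type ileal array 1 and jejunal array 1.

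**Figure D5:**
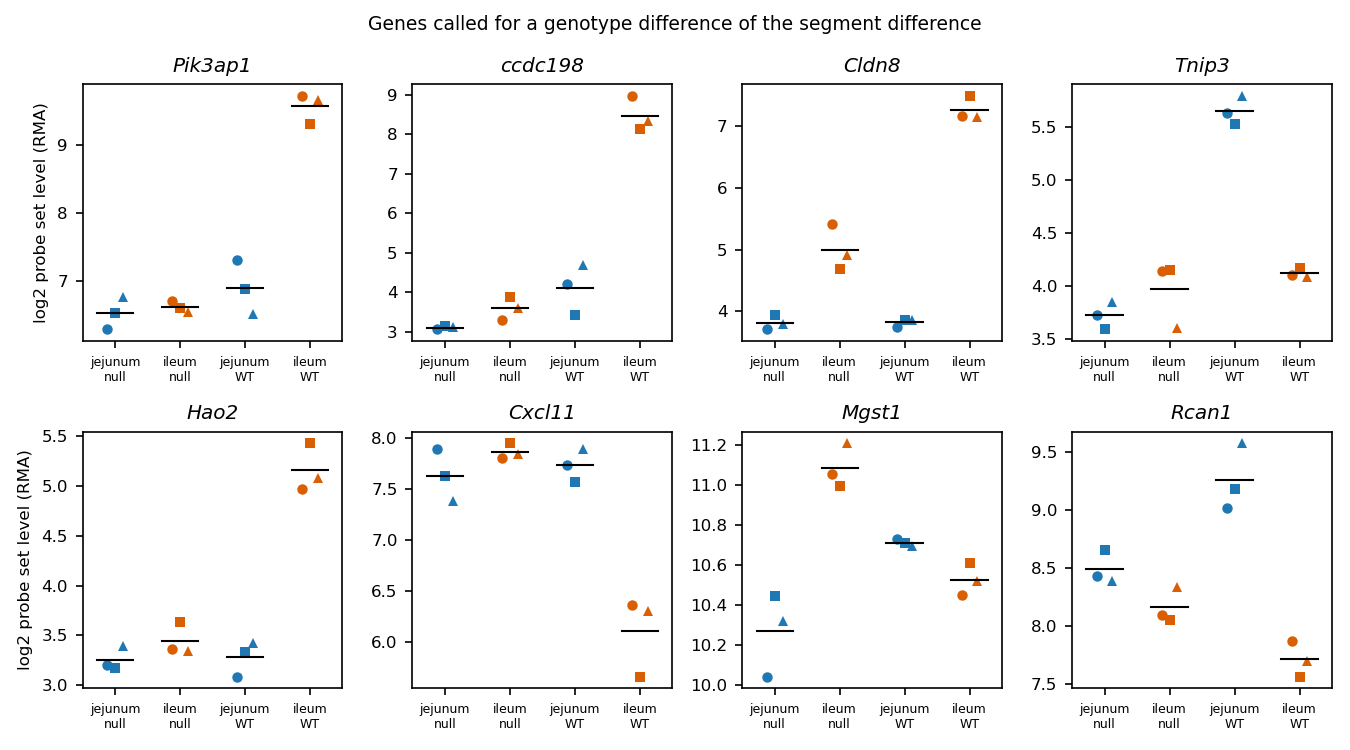
Log2 level (vertical axis, a separate range for each gene) of the 8 genes called for a difference between genotypes on each jejunal (blue) and ileal (orange) array of Casp1-null (null) and wild-type (WT) mice, with circles for array 1, squares for array 2, triangles for array 3 and a bar at their mean. Pik3ap1 and ccdc198 are high in wild-type ileum alone.

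Some further genes of this test are described although they were not called. For Fabp1, wild-type levels were 12.62, 12.79 and 12.78 in jejunum and 9.74, 8.83 and 8.70 in ileum, a fall of 12.5-fold against 3.41-fold in Casp1-null, and the difference between genotypes was not called (1.87 ± 0.30 SE, adjusted p = 0.0535). Nor was that of Ubd (4.08 ± 0.70 SE, adjusted p = 0.0801). Prodh2, a hydroxyproline dehydrogenase, fell in Casp1-null mice from 7.47, 7.41 and 6.80 to 4.81, 5.07 and 4.83 (log2 difference -2.32 ± 0.25 SE, adjusted p = 3.2e-05), and was low in both wild-type segments, at 4.80, 4.75 and 4.65 and 4.64, 4.23 and 4.25 (-1.96 ± 0.35 SE, adjusted p = 0.109). Fosb had a genotype difference of -2.50 ± 0.42 SE, adjusted p = 0.0665. Duox2 and Duoxa2, which rose 13.9-fold and 16.8-fold in Casp1-null ileum, were not called in wild type, with log2 differences of 1.01 and 0.89 (adjusted p = 0.421 and 0.425). In wild-type jejunum Duox2 was already at 10.55, 10.19 and 9.38. The differences between genotypes were not called for either gene (adjusted p = 0.855 and 0.559). Nos2, which rose in Casp1-null ileum, was at 12.27, 11.99 and 12.10 in wild-type jejunum and 11.36, 10.63 and 11.54 in wild-type ileum (genotype difference 3.69 ± 0.77 SE, adjusted p = 0.243).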

How the data were processed

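The authors deposited 1 table of log2 levels, 35556 probe sets on 24 arrays, made by RMA (background correction, quantile normalization and summary of probes) per the submitters' processing notes. Its version was not given in the sources used here. RMA keeps no signal over background per probe set. Each array took 100 ng of RNA with an integrity number above 8.0, per the labels. Gene names came from the platform annotation: 21218 probe sets had 1 symbol, 1881 several and 12457 none, and 18820 genes were tested, each by its probe set of highest mean. limma 3.58.1 in R 4.3.3 was fitted over the 18 intestinal arrays in 6 groups. Benjamini-Hochberg adjustment ran over all 35556 probe sets, with or without a gene symbol, and calls were made under 0.05. The exact permutation test of 3 arrays against 3 cannot go below 0.1. The fit was tested on simulated data. Named genes were Casp1, the 15 largest called rises and falls without overlap and 15 genes of smallest interaction p. Genes marked as key in each list were also named, called or not, with up to 6 more called members. Members and lists were chosen with earlier results of these data known. Figures used matplotlib 3.10.9. Liver arrays were not used here. Alternatives covered scaling, filters, weights, blocks and single arrays left out.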

Additional observations from a re-analysis of the deposited data

Results flagged for a closer look

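With limma, 8 genes had a difference between ileum and jejunum that differed between Casp1-null and wild-type mice, by the test of the interaction term itself. The values are the Casp1-null minus the wild-type log2 difference. They were -2.58 for Pik3ap1, -3.89 for ccdc198, -2.25 for Cldn8, 1.78 for Tnip3, -1.68 for Hao2, 1.87 for Cxcl11, 1.00 for Mgst1 and 1.22 for Rcan1. Those of Pik3ap1, ccdc198 and Cldn8 were called under every alternative run. Tnip3 and Hao2 lost the call only against a minimum change of 1.5-fold (adjusted p = 0.0981 and 0.142). Cxcl11 lost it against that minimum, with only the arrays compared in the fit and without some single arrays. Mgst1 and Rcan1 lost it in those settings too, and also after a further quantile normalization, after median centring, with the replicate block and without both arrays high in smooth muscle markers.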

How the results depend on the processing

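Among the named genes, the only ones recomputed singly, no called value changed sign under the alternatives run. Some counts over all genes moved by over 1.5 times with only the arrays compared, against a minimum change, with array weights and without some single arrays. They moved by less without both arrays high in smooth muscle markers and with the replicate block. Small counts within lists moved by more there. Without both arrays, falls among enteroendocrine genes went from 7 to 4 and rises among fatty acid oxidation genes from 3 to 1. With the replicate block, falls among cholesterol genes went from 2 to 1. After median centring, rises among interferon-stimulated genes went from 7 to 4. With only the arrays compared in the fit, 594 genes were higher and 496 lower in Casp1-null ileum, 866 and 742 in wild type, and 5 differed between genotypes; this fit has fewer arrays to estimate the spread. Against a minimum change of 1.5-fold the numbers were 134, 143, 161, 185 and 3. Array weights gave 19 genes for the difference between genotypes, and the cause was not tested. Leaving out each array in turn gave 725 to 1254 higher and 772 to 1106 lower genes in Casp1-null mice, 1007 to 1716 and 831 to 1258 in wild type, and 6 to 11 between genotypes. Without both arrays high in smooth muscle markers, a setting chosen after seeing the data, the numbers were 1201, 971, 1151, 861 and 7. Same-numbered ileal and jejunal arrays deviated together with r of 0.09, -0.05 and 0.17 in Casp1-null and 0.15, 0.06 and 0.00 in wild type, so the numbers were not taken to pair the samples. With the replicate block, 1255 and 1064 genes were called in Casp1-null mice, 1757 and 1238 in wild type, and 8 between genotypes. Of the 175 named genes called in Casp1-null mice, 127 were called without each array in turn and 63 under every alternative. Lost calls are given above mostly for single arrays left out. With only the arrays compared in the fit, further named genes lost the call. Among them were Casp12 (adjusted p = 0.0754), Onecut2 (0.07), Creb3l3 (0.069), Tac1 (0.0662) and Plet1 (0.0542). Of the single-gene values under alternatives, 7216 kept their side of the threshold, 616 lost the call and 68 gained it. Precision is limited by having 3 arrays a group, and signal over background was not used here.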
